A study of Mus musculus with 6 samples.

Results

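The genes of the TNF ligand and receptor superfamilies were followed in sorted mouse bone marrow cells. Members were chosen by name from the platform annotation: every gene that is the only symbol of its probe set and begins with Tnfsf or Tnfrsf, and Tnf, Lta, Ltb, Ltbr, Fas, Fasl, Cd40, Cd40lg and Cd70. This gave 38 of 19938 named genes, of which 15 were ligands and 23 receptors, each with a single probe set. A further probe set that the annotation assigns to several symbols, among them superfamily genes, was not named. The rule used no measured value.

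Donors were C57BL/6 mice treated with fluorouracil, a drug that kills dividing marrow cells, and their marrow was infected with a retrovirus and given to C57BL/6 recipients. The vector group carried GFP alone, the BCR-ABL group the fusion kinase of chronic myeloid leukemia with GFP, and the BCR-ABL-Blk group this kinase, the Src family kinase Blk and GFP. The labels give an age of 8 weeks and a wild-type genotype for every sample. At day 14 after transplantation GFP+ cells without lineage markers that carried both c-Kit and Sca-1 were sorted from the marrow. The labels name these stem cells in the vector group and leukemic stem cells in the others. Each group had 2 biological replicates with 1 array each; the number of mice behind a replicate is not given in the labels, and virus-driven expression marks the infected cells of a host that also keeps marrow of its own.

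TNF superfamily ligands are made as trimers, mostly on the cell surface, and bind receptors that fall into broad kinds. Death receptors such as Fas carry a death domain in their tail and can start caspase cleavage, whereas most others recruit TRAF adaptors and switch on NF-kB. In blood-forming tissue, TNF itself acts on stem cells in inflammation, BAFF and its receptors keep B cells alive, RANK ligand drives osteoclasts, and CD137, OX40 and GITR are known as costimulatory receptors of lymphocytes.

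The deposited log2 values had array medians from 7.01 to 7.52, so all signals below are log2 values after quantile normalization. Kit read from 10.33 to 10.92 and Cd34, a progenitor marker, from 11.54 to 11.97 on the 6 arrays; Ly6a (Sca-1) was not analysed here. The 12 stem and progenitor markers did not read alike across groups. Between BCR-ABL and vector 11 had arrays that did not overlap (91.7%, all named genes: 37.0%). At an unadjusted limma p under 0.05, 7 were higher and 1, Kit, lower (66.7%, all named genes: 8.64%). The median difference was 0.40 (all named genes: 0.02). Cd48 rose by 0.47 (limma adjusted p = 0.0493). Mecom, a stem cell transcription factor, read 7.89 and 6.54 in vector and from 8.98 to 9.62 on the arrays with BCR-ABL. Their part in the differences below was not tested. The mean signal of 11 B cell markers was 9.71 and 8.40 in vector and ran from 7.39 to 7.93 on the 4 arrays with BCR-ABL. For 12 mast cell, basophil and eosinophil markers it was 8.40 and 8.32 in vector, 9.14 and 9.23 in BCR-ABL, and 9.30 and 8.35 in BCR-ABL-Blk. Against vector all 9 monocyte and macrophage markers lay below 0, with median differences of −0.77 (BCR-ABL) and −0.92 (BCR-ABL-Blk). So did all 10 dendritic cell markers (−1.09 and −0.81) and 5 of 6 erythroid markers (−0.40 and −0.755). All 7 megakaryocyte markers lay above 0 (0.55 and 0.62). The part of these 4 lists in the member values was not tested. Signals of different probe sets cannot be ranked against each other, and signal over background was not measured; for 19 members all 3 group means lay below the median signal of the named genes (7.50), which is not a background level.

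No member passed the test in any of the 3 comparisons (limma, Benjamini-Hochberg adjusted p under 0.05 over 19938 genes), and most members differed little. Between BCR-ABL and vector cells 0 of 38 members passed, where 0.145% of all named genes did; at an unadjusted p under 0.05 there were 4 members (10.5%) and 8.64% of all genes. Between BCR-ABL-Blk and BCR-ABL cells 0 members and 0% of all genes passed, and 5 members (13.2%) and 3.96% of all genes had an unadjusted p under 0.05. Between BCR-ABL-Blk and vector cells 0 members passed against 0.140% of all genes, and 1 member (2.63%) against 9.42% had an unadjusted p under 0.05. The median member difference was 0.03, −0.02 and 0.03 in that order, beside 0.02, −0.01 and 0.00 over all named genes. The arrays of the compared groups did not overlap for 16 members between BCR-ABL and vector (all genes: 37.0%), for 11 where BCR-ABL-Blk was set against BCR-ABL (34.0%) and for 11 where it was set against vector (37.2%).

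The arrays could bound most differences. The 95% interval of the difference lay wholly within a 2-fold change either way for 32 of 38 members between BCR-ABL and vector, for 36 where BCR-ABL-Blk was set against BCR-ABL, and for 37 where it was set against vector; over all named genes the shares were 94.6%, 97.1% and 94.5%. The intervals that reached a 2-fold change belonged to Tnfrsf9, Tnfrsf18, Tnfrsf1a, Fas, Tnfsf9 and Tnfsf10 in the first comparison, to Ltb and Tnfsf9 in the second and to Ltb in the third. An interval reached 0.32 log2 to either side of its difference in the median, and between 0.20 and 0.69 over the members.

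**Figure D1:**
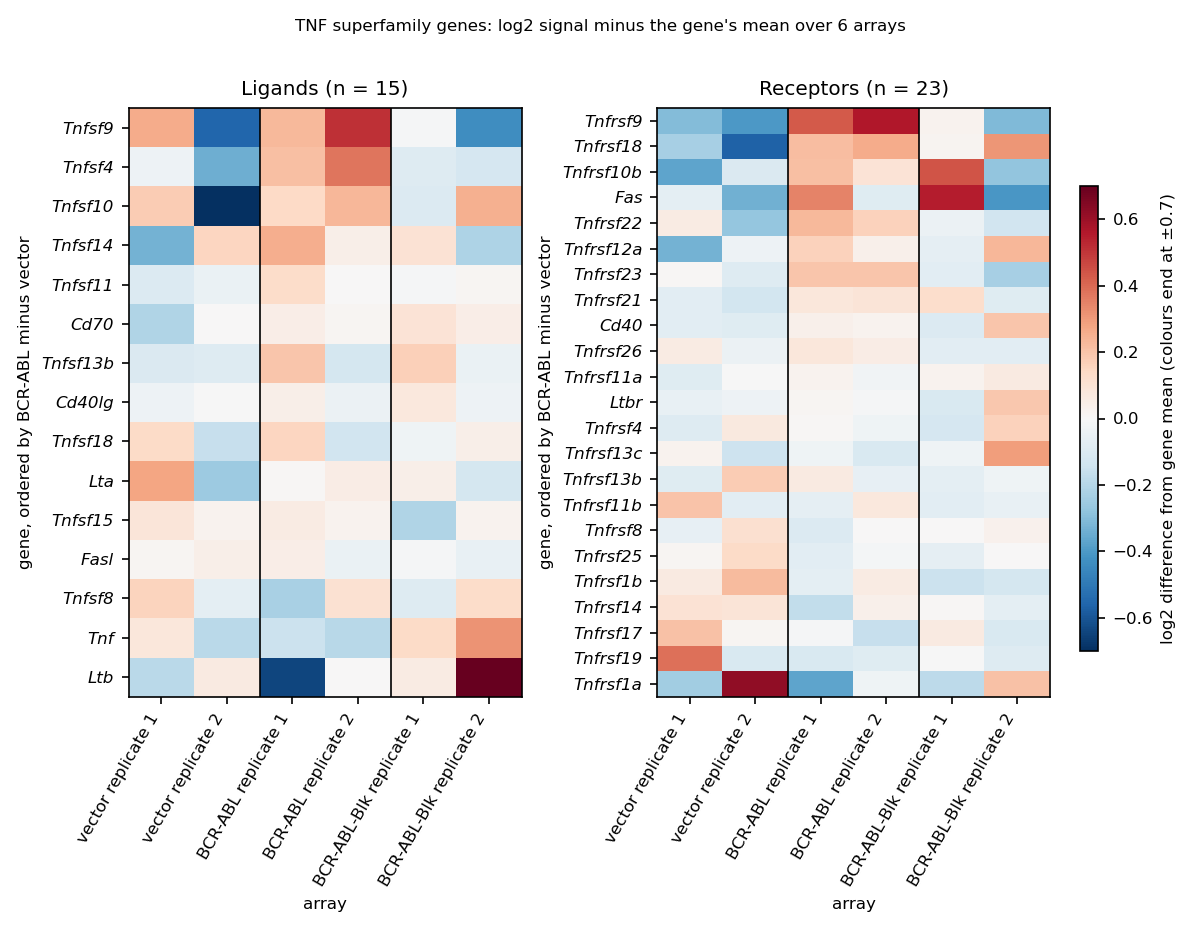
Colour shows the log2 signal of each member on each of the 6 arrays minus that gene's mean over the arrays, for 15 ligands (left) and 23 receptors (right), ordered by the BCR-ABL minus vector difference; colours end at ±0.7. Tnfrsf9 is red on both BCR-ABL arrays and blue on both vector arrays, while rows such as Fas, Tnfsf10 and Tnfrsf1a change colour between the replicates of a group.

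Tnfrsf9, the costimulatory receptor CD137 that recruits TRAF adaptors, came nearest to the threshold of all members. Its signal was 7.22 and 7.12 in vector, 7.95 and 8.08 in BCR-ABL, and 7.55 and 7.21 in BCR-ABL-Blk cells. Both BCR-ABL arrays lay above every other array, and one BCR-ABL-Blk array fell among the vector arrays. The signal in BCR-ABL cells was 1.80-fold that in vector cells (log2 difference 0.85, SE 0.15, 95% interval 0.51 to 1.19, limma adjusted p = 0.0958), which did not pass. Without vector replicate 1 it did, at 0.90 (adjusted p = 0.0475), and over the other 11 alternatives the adjusted p was higher, up to 0.578. Against BCR-ABL cells the BCR-ABL-Blk cells read lower (difference −0.64, SE 0.15, unadjusted p = 0.00278, limma adjusted p = 0.999; −0.35 on the deposited values), and against vector cells their interval ran from −0.13 to 0.55. The comparisons share the BCR-ABL arrays, so a gene that reads high there differs with opposite sign in the first 2. The mean of the mast cell, basophil and eosinophil markers was likewise higher on both BCR-ABL arrays than on both vector arrays. Of these 12 markers 8 lay above 0 and 4 below between BCR-ABL and vector, from 3.25 for Gzmb to −0.98 for Prg2. BCR-ABL-Blk replicate 2 lay among the vector arrays for the mean too, but BCR-ABL-Blk replicate 1 was the highest of all. The part of these markers in the Tnfrsf9 values was not tested. In bulk samples more cells of a type and more RNA per cell cannot be told apart.

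Promoter windows were looked up because NF-kB and STAT factors are known to act downstream of these receptors and of BCR-ABL. RefSeq windows of 300 bases (250 before to 50 after a start, GRCm38.p6) were at hand for 29 of 38 members, as 33 windows. Both strands were searched for the kB consensus, which NF-kB dimers bind, and for TTCNNNGAA, the palindromic core of STAT sites. The kB consensus was found in 4.51% of all 32851 windows and in 3 of the 33 member windows, those of Tnfrsf9, Ltb and Tnfrsf8. TTCNNNGAA was found in 8.3% of all windows and in 9 member windows (27.3%): Fas, Lta, Ltb, Tnfrsf18, Tnfrsf19, Tnfrsf1a, Tnfrsf1b, Tnfrsf25 and Tnfrsf9. A match is a run of letters and shows no binding. Shown here are the windows of the receptors with the largest difference between BCR-ABL and vector and of Ltb, the ligand with the largest difference between BCR-ABL-Blk and BCR-ABL, with matches in capitals.
Tnfrsf9, second annotated start, chr4:150927749-150928048, plus strand: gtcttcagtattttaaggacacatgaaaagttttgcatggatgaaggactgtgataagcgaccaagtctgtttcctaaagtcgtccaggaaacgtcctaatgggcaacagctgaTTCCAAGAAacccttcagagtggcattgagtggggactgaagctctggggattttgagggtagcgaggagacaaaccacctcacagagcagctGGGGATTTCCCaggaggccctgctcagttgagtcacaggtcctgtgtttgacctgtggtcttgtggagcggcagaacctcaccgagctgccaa
Tnfrsf18, chr4:156026072-156026371, plus strand: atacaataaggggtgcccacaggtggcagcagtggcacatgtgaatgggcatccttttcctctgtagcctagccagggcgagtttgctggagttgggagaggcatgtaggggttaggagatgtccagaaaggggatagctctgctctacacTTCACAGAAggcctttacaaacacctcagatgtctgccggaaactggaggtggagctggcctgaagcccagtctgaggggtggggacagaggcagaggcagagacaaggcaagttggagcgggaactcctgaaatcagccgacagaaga
Ltb, chr17:35194257-35194556, plus strand: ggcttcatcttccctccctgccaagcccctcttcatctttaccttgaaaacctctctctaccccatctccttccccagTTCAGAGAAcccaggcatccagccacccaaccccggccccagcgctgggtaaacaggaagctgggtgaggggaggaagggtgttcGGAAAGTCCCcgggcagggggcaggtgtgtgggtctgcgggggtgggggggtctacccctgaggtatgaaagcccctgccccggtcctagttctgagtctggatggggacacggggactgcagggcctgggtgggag
In the Tnfrsf9 window the capitals from base 208 to base 218 hold 2 overlapping kB matches, at bases 208 to 217 and 209 to 218, and those from base 115 to base 123 hold TTCNNNGAA. The window at the first annotated start of Tnfrsf9 held neither motif. In the Ltb window the kB match lies at bases 164 to 173 and TTCNNNGAA at bases 79 to 87, and Tnfrsf18 holds TTCNNNGAA at bases 152 to 160. The deposited values do not say which start a transcript used.

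Tnfsf9, the ligand of CD137, varied more. Its signal was 6.56 and 5.75 in vector, 6.53 and 6.81 in BCR-ABL, and 6.29 and 5.87 in BCR-ABL-Blk cells. The vector arrays spanned most of the range of the gene, so vector and BCR-ABL overlapped, whereas both BCR-ABL arrays lay above both BCR-ABL-Blk arrays. BCR-ABL minus vector was 0.52 (95% interval −0.10 to 1.13, limma adjusted p = 0.647) and BCR-ABL-Blk minus BCR-ABL was −0.59 (95% interval −1.20 to 0.03, adjusted p = 0.999), or −0.38 without BCR-ABL-Blk replicate 2 and −0.30 on the deposited values. BCR-ABL minus vector was 0.92 without vector replicate 1, and 0.11 when vector replicate 2 was left out.

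Tnfsf4, the OX40 ligand, read 6.58 and 6.27 in vector, 6.82 and 6.99 in BCR-ABL, and 6.52 and 6.50 in BCR-ABL-Blk cells. As for Tnfrsf9, both BCR-ABL arrays were the highest of the 6. BCR-ABL minus vector was 0.48 (SE 0.13, unadjusted p = 0.00624, limma adjusted p = 0.296) and BCR-ABL-Blk minus BCR-ABL was −0.40 (SE 0.13, unadjusted p = 0.0159, adjusted p = 0.999; −0.105 on the deposited values), neither past the threshold. Its receptor OX40, Tnfrsf4, had group means of 7.16, 7.16 and 7.19 in vector, BCR-ABL and BCR-ABL-Blk cells, with arrays between 7.05 and 7.33.

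Tnfrsf18, the receptor GITR known from regulatory T cells, was the member whose signal stood higher in both groups with the oncogene. It read 8.43 and 8.10 in vector, 8.88 and 8.93 in BCR-ABL, and 8.68 and 8.97 in BCR-ABL-Blk cells, so all 4 arrays with BCR-ABL lay above both vector arrays. The difference from vector was 0.64 in BCR-ABL (SE 0.17, unadjusted p = 0.00702, limma adjusted p = 0.311) and 0.56 in BCR-ABL-Blk cells (SE 0.17, unadjusted p = 0.0128, adjusted p = 0.342), neither of which passed. Between the oncogene groups the interval ran from −0.48 to 0.33. Cd70 and Tnfsf11 also had all 4 of these arrays above vector, and Tnfrsf14, Tnfrsf1b and Tnfrsf25 had them below: 6 of 38 members in all, beside 19.2% of all named genes. The GITR ligand, Tnfsf18, had group means of 5.87, 5.89 and 5.89. The mean signal of 12 T and NK cell markers lay between 7.53 and 7.69 on the 6 arrays, and the T cell chain Cd3e between 7.35 and 7.64, but single markers went both ways. Between BCR-ABL and vector their differences ran from −1.29 for Klrd1, an NK cell receptor that fell (limma adjusted p = 0.0187), to 1.34 for Lat, a T cell adaptor that mast cells also use (adjusted p = 0.0504). The arrays did not overlap for 7 of 12 (58.3%), beside 37.0% of all named genes. The part of these markers in the GITR values was not tested.

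**Figure D2:**
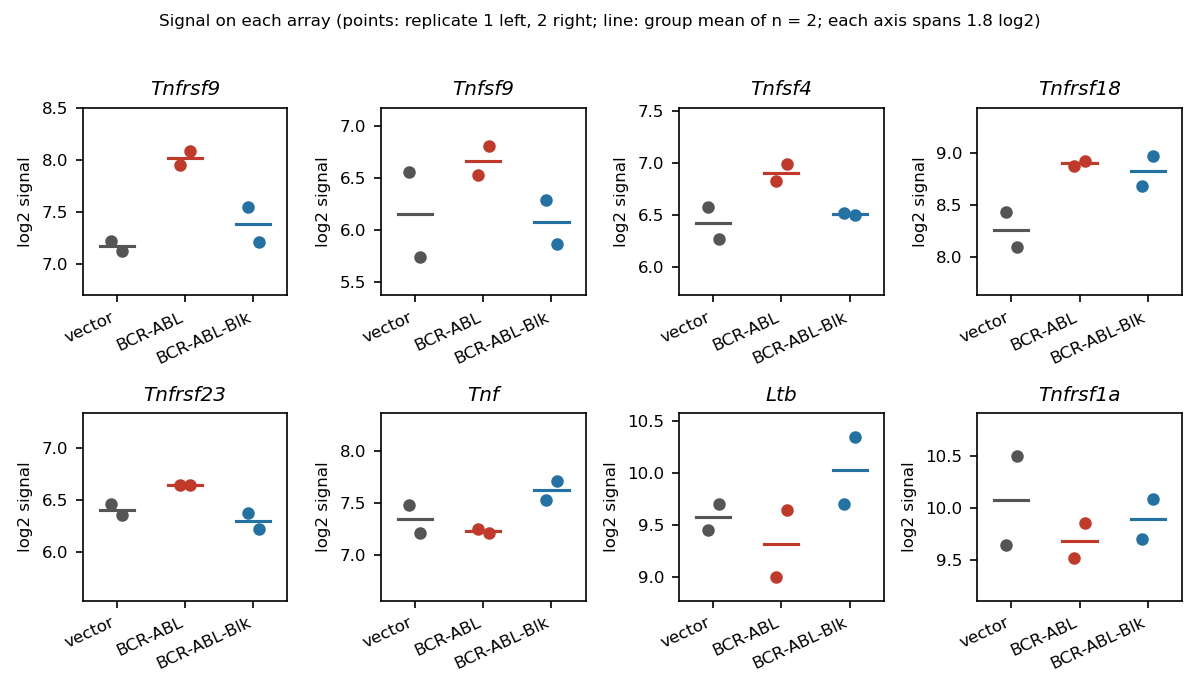
Points are the log2 signals of 8 members on the 2 arrays of each group (replicate 1 left, replicate 2 right), lines are group means, and every vertical axis spans 1.8 log2 units. Tnfrsf9, Tnfsf4 and Tnfrsf23 are highest on both BCR-ABL arrays, Tnf is highest on both BCR-ABL-Blk arrays, and Ltb and Tnfrsf1a are higher on replicate 2 than on replicate 1 in each group.

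Tnf, the founding ligand of the family and a mediator of inflammation, read highest with added Blk. The signal was 7.49 and 7.22 in vector, 7.25 and 7.21 in BCR-ABL, and 7.54 and 7.72 in BCR-ABL-Blk cells. Both BCR-ABL-Blk arrays lay above all others, with vector replicate 1 close below. BCR-ABL-Blk minus BCR-ABL was 0.40 (SE 0.14, 95% interval 0.08 to 0.71, unadjusted p = 0.0212), which missed the adjusted threshold (limma adjusted p = 0.999); on the deposited values it was 0.695. BCR-ABL-Blk minus vector was 0.28 (limma adjusted p = 0.600), and fell to 0.14 without vector replicate 2 and 0.18 without BCR-ABL-Blk replicate 2; it was 0.43 on the deposited values. BCR-ABL minus vector was −0.12 (adjusted p = 0.871) and turned to 0.02 without vector replicate 1.

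Ltb, which anchors lymphotoxin to the membrane, had the largest positive difference between BCR-ABL-Blk and BCR-ABL cells. It read 9.45 and 9.70 in vector, 8.995 and 9.64 in BCR-ABL, and 9.70 and 10.35 in BCR-ABL-Blk cells. The 2 groups with the oncogene did not overlap, but by a narrow margin, and in each group replicate 2 was the higher. The difference between them was 0.70 (SE 0.27, 95% interval 0.06 to 1.35, unadjusted p = 0.0354) and did not pass (limma adjusted p = 0.999). On the deposited values, without normalization between arrays, it was 0.94 and passed (adjusted p = 0.00108), in a scaling where the median named gene itself differed by 0.255; it was 0.38 without BCR-ABL replicate 1 and 0.38 without BCR-ABL-Blk replicate 2. Against vector, BCR-ABL-Blk differed by 0.45 (adjusted p = 0.695), and by 0.63 on the deposited values (adjusted p = 0.0402), where the median gene differed by 0.15; it was 0.12 without BCR-ABL-Blk replicate 2 and 0.77 without BCR-ABL-Blk replicate 1. Lta, the soluble lymphotoxin chain, had group means of 6.74, 6.76 and 6.69, and Ltbr, the receptor of the lymphotoxin heterotrimer, of 8.15, 8.19 and 8.23.

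Neither receptor of TNF passed the adjusted threshold in any comparison. Tnfrsf1a, the death domain receptor of soluble TNF, read 9.65 and 10.51 in vector, 9.52 and 9.86 in BCR-ABL, and 9.71 and 10.10 in BCR-ABL-Blk cells. Vector replicate 2 stood above all other arrays and replicate 1 lay among them. BCR-ABL minus vector was −0.39 (95% interval −1.05 to 0.28, limma adjusted p = 0.772); leaving out vector replicate 2 turned it to 0.04, and leaving out the other vector array gave −0.82. The mean signal of 11 neutrophil granule markers was likewise highest on vector replicate 2, at 10.79 against 9.74 to 10.36 on the other arrays. But this marker mean was lowest on BCR-ABL-Blk replicate 2, at 9.74. On that array Tnfrsf1a read 10.10, above every array but vector replicate 2. Any part of the markers in the Tnfrsf1a values was not tested. BCR-ABL-Blk differed from BCR-ABL by 0.21 and from vector by −0.18, and the latter sign turned in several settings. Tnfrsf1b, the TRAF-binding receptor that prefers membrane-bound TNF, read 8.42 and 8.58 in vector, 8.29 and 8.41 in BCR-ABL, and 8.21 and 8.24 in BCR-ABL-Blk cells. The vector arrays lay above all others, and the difference from vector was −0.15 in BCR-ABL (limma adjusted p = 0.827) and −0.28 in BCR-ABL-Blk cells (95% interval −0.60 to 0.04, adjusted p = 0.598; −0.115 on the deposited values). Between the oncogene groups it differed by −0.13, and by 0.16 on the deposited values.

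Among death receptors, Fas varied most between replicates. It read 6.05 and 5.78 in vector, 6.46 and 6.03 in BCR-ABL, and 6.67 and 5.71 in BCR-ABL-Blk cells. The BCR-ABL-Blk arrays were the highest and the lowest of the 6, so the groups overlapped. The differences from vector were 0.33 in BCR-ABL (95% interval −0.36 to 1.02, limma adjusted p = 0.823) and 0.27 in BCR-ABL-Blk cells (95% interval −0.41 to 0.96, adjusted p = 0.860), and −0.06 between the oncogene groups. The first of these was 0.11 without BCR-ABL replicate 1, 0.55 without BCR-ABL replicate 2 and 0.20 when vector replicate 2 was left out. Without BCR-ABL-Blk replicate 1 the second was −0.21, and without BCR-ABL-Blk replicate 2 it was 0.75. Fas ligand, Fasl, the death signal of cytotoxic lymphocytes, had group means of 5.59, 5.56 and 5.53, with all 6 arrays between 5.50 and 5.61.

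The TRAIL system showed a similar spread. TRAIL itself, Tnfsf10, read 8.56 and 7.67 in vector, 8.52 and 8.61 in BCR-ABL, and 8.29 and 8.63 in BCR-ABL-Blk cells. A single array, vector replicate 2, stood below the other 5. BCR-ABL minus vector was 0.45 (95% interval −0.20 to 1.102, limma adjusted p = 0.719), which fell to 0.01 when vector replicate 2 was left out and became 0.89 without the other vector array. BCR-ABL-Blk minus vector was 0.34 (adjusted p = 0.799), and −0.10 without vector replicate 2. Tnfrsf10b, the TRAIL death receptor of the mouse, read 7.28 and 7.55 in vector, 7.86 and 7.75 in BCR-ABL, and 8.09 and 7.37 in BCR-ABL-Blk cells. Both BCR-ABL arrays lay above both vector arrays, while one BCR-ABL-Blk array was the highest of the 6 and the other lay among the vector arrays. BCR-ABL-Blk minus vector was 0.32 (95% interval −0.22 to 0.85, adjusted p = 0.758), and −0.04 without BCR-ABL-Blk replicate 1.

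The mouse decoy receptors for TRAIL lie next to each other on the chromosome and resemble each other, so the share of each in a signal is uncertain. Tnfrsf23 read 6.46 and 6.36 in vector, 6.65 and 6.64 in BCR-ABL, and 6.38 and 6.22 in BCR-ABL-Blk cells. Both BCR-ABL arrays were above all others. The difference was 0.24 between BCR-ABL and vector (SE 0.10, unadjusted p = 0.0483, limma adjusted p = 0.573) and −0.35 between BCR-ABL-Blk and BCR-ABL (SE 0.10, unadjusted p = 0.00977, adjusted p = 0.999), and −0.05 for the latter on the deposited values. Tnfrsf22 had group means of 8.40, 8.70 and 8.41, with the BCR-ABL arrays again the highest, and its neighbour Tnfrsf26 had means of 9.41, 9.47 and 9.33. Of the other death domain receptors, Tnfrsf25 had means of 6.93, 6.81 and 6.82 and Tnfrsf21 of 9.36, 9.54 and 9.48; the ligand of Tnfrsf25, Tnfsf15, had means of 7.08, 7.07 and 6.94.

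The receptors of BAFF and APRIL, known mainly from B cells, varied little while the mean of 11 B cell markers varied widely. Tnfrsf13c, the BAFF receptor, read 8.46 and 8.29 in vector, 8.40 and 8.33 in BCR-ABL, and 8.40 and 8.72 in BCR-ABL-Blk cells. Tnfrsf13b (TACI) read 8.06 and 8.32, 8.20 and 8.08, and 8.07 and 8.11, and Tnfrsf17 (BCMA, a receptor of plasma cells) read 6.63 and 6.44, 6.41 and 6.26, and 6.49 and 6.32 in the same order. The vector and BCR-ABL arrays overlapped for Tnfrsf13c and Tnfrsf13b, whereas for Tnfrsf17 both BCR-ABL arrays lay just below both vector arrays. Of 11 B cell markers 9 lay below 0 between BCR-ABL and vector, with a median difference of −1.54. Of these, 8 had an unadjusted p under 0.05 (all named genes: 8.64%) and 0 passed the limma adjusted threshold (all named genes: 0.145%). The marker mean already differed between the vector replicates. Single markers did not move alike. Ebf1 read 10.745 and 8.68 in vector and 6.41 and 7.74 in BCR-ABL cells. Cd22 read 6.45 and 6.36, and 6.31 and 6.25, in the same order. The 2 markers above 0 were Cd72 (9.68 and 8.87, and 9.64 and 9.72) and Ms4a1 (5.60 and 5.24, and 5.54 and 5.63). BAFF itself, Tnfsf13b, which myeloid and stromal cells make, had group means of 6.28, 6.41 and 6.43. The monocyte and macrophage markers had lower means with the oncogene than in vector, and their part in the BAFF values was not tested.

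**Figure D3:**
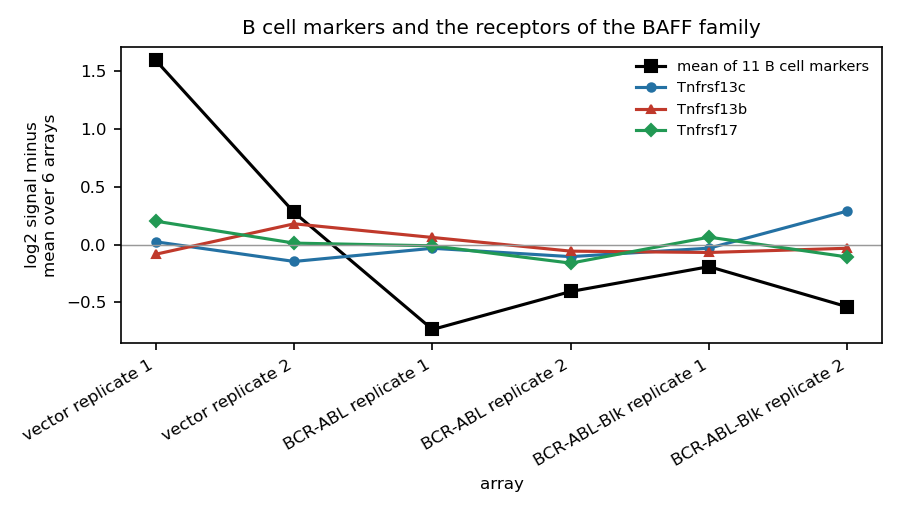
Lines join the 6 arrays in the order vector, BCR-ABL and BCR-ABL-Blk and show the log2 signal minus its mean over the arrays, for the mean of 11 B cell markers (black squares) and for 3 receptors of BAFF and APRIL. The marker mean falls from 9.71 on vector replicate 1 to between 7.39 and 7.93 on the arrays with BCR-ABL, while each receptor stays near its own mean.

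The remaining costimulatory members were close to level. Cd40, the receptor for T cell help on B cells and macrophages, read 7.56 and 7.55 in vector, 7.67 and 7.66 in BCR-ABL, and 7.54 and 7.83 in BCR-ABL-Blk cells. The BCR-ABL-Blk arrays lay below and above all the others. It differed from vector by 0.11 in BCR-ABL (limma adjusted p = 0.879) and by 0.13 in BCR-ABL-Blk cells (adjusted p = 0.859), with 0.02 between the oncogene groups. Its ligand Cd40lg, made by helper T cells, gave means of 4.64, 4.66 and 4.67. Cd70 had means of 5.80, 5.93 and 5.97, Tnfsf8 (the CD30 ligand) of 7.49, 7.39 and 7.47, and Tnfrsf8 (CD30) of 6.74, 6.67 and 6.73. Tnfsf14, the ligand LIGHT, had means of 7.88, 8.12 and 7.91, and its receptor HVEM, Tnfrsf14, of 8.30, 8.14 and 8.18.

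Members that act in bone and tissue repair had no unadjusted limma p under 0.05. RANK ligand, Tnfsf11, had group means of 8.56, 8.69 and 8.63, its receptor RANK, Tnfrsf11a, of 7.35, 7.40 and 7.44, and the soluble decoy osteoprotegerin, Tnfrsf11b, of 6.52, 6.46 and 6.39. Tnfrsf12a (Fn14), the receptor for TWEAK, had means of 8.50, 8.78 and 8.77, with both BCR-ABL arrays above both vector arrays. Tnfrsf19 (TROY), better known from skin and nerve, had means of 7.17, 6.94 and 6.99, with vector arrays at 7.42 and 6.93. All 95% intervals of these 5 genes lay within a 2-fold change in each comparison, as did those of 94.6%, 97.1% and 94.5% of all named genes.

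**Figure D4:**
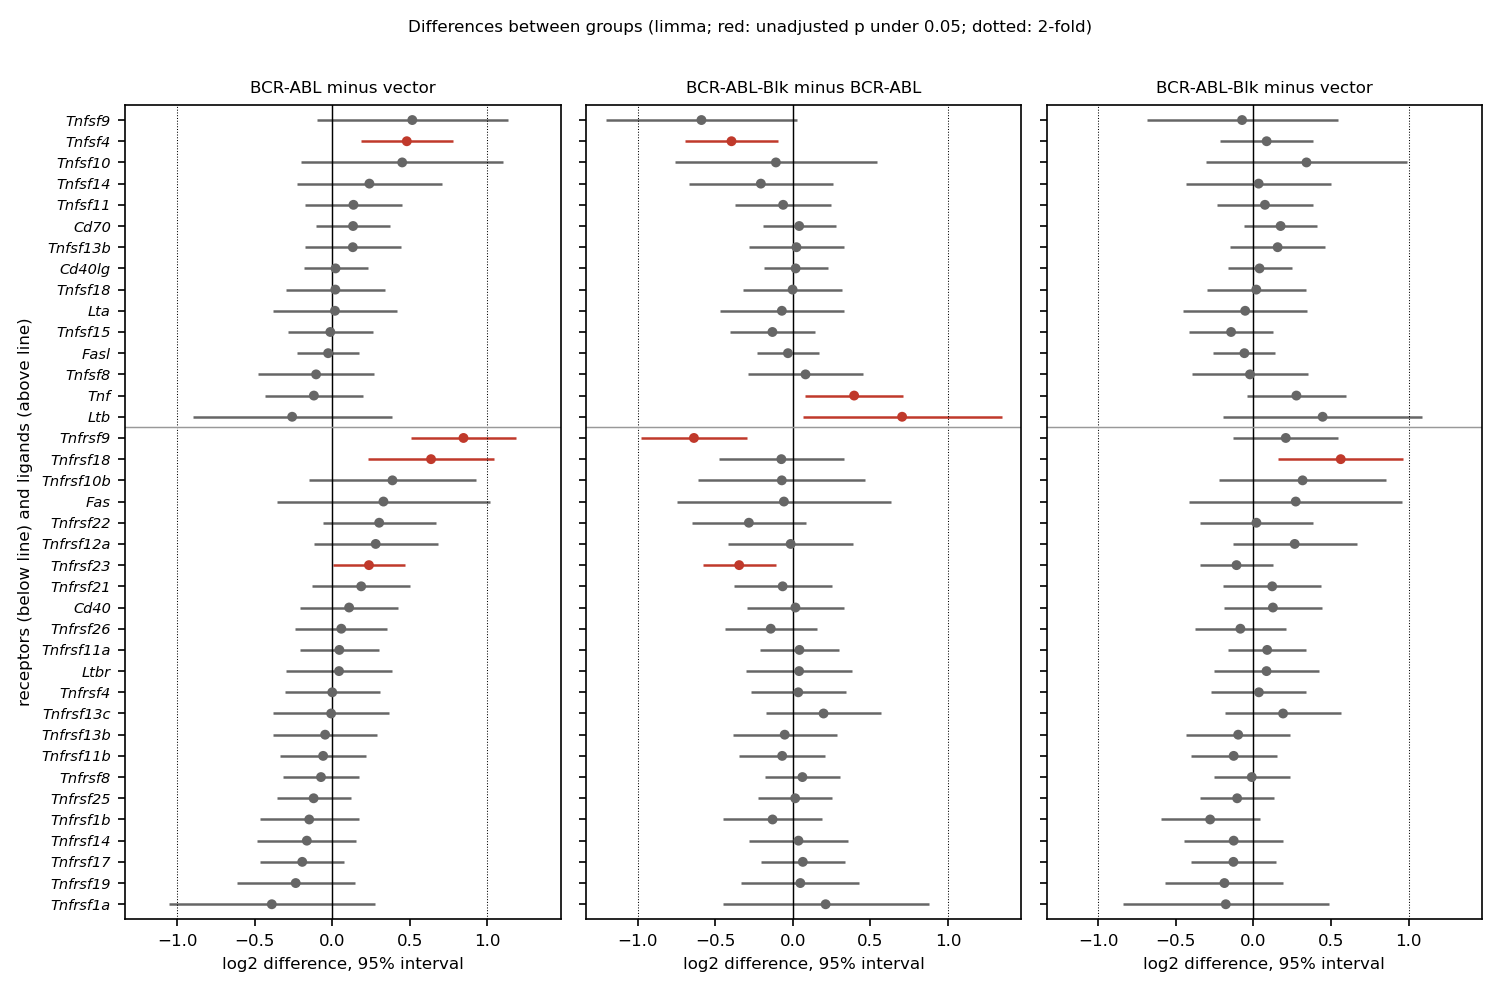
Points are log2 differences between group means for 38 members in the 3 comparisons and bars their 95% intervals from the limma fit (n = 2 arrays per group); red marks an unadjusted p under 0.05 and dotted lines a 2-fold change. None passed after adjustment over 19938 genes, and Tnfrsf9 has the largest difference between BCR-ABL and vector, at 0.85.

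Genes that work with the superfamily were read from 6 lists of signalling partners, enzymes and response genes. Superfamily genes with other names (Cd27, Ngfr, Eda, Edar, Eda2r and Relt) had 0 of 6 past the adjusted threshold in each comparison, with median differences of 0.05, −0.02 and 0.05. TRAF adaptors, which link receptors to NF-kB and kinases, had 0 of 10 past it, with medians of −0.07, 0.00 and −0.07; Traf3ip2, an adaptor of IL-17 receptors, lay below vector, at −0.30 with BCR-ABL and −0.50 with BCR-ABL-Blk (limma adjusted p = 0.562 and 0.211). Death domain and caspase genes had 0 of 14 past it, with medians of 0.06, −0.06 and 0.01, and Cyld, a deubiquitinase that restrains NF-kB, was at 0.27 between BCR-ABL-Blk and BCR-ABL (adjusted p = 0.999). NF-kB subunits, inhibitors and kinases had 0 of 19 past it, with medians of 0.02, −0.05 and 0.03. There, Tab2, an adaptor of the kinase TAK1, was at 0.25 and 0.20 in BCR-ABL and BCR-ABL-Blk cells against vector, and Sharpin, a part of the linear ubiquitin ligase, and Nfkbib, an NF-kB inhibitor, were at −0.44 and −0.38 in BCR-ABL-Blk cells (adjusted p from 0.352 to 0.479).

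A gene passed in each of the last 2 lists. Of 24 NF-kB response genes 1 rose between BCR-ABL and vector and 0 fell (median difference 0.01), where 0.145% of all named genes passed (median 0.02). In the other comparisons 0 of these genes passed (BCR-ABL-Blk against BCR-ABL, median −0.09, and against vector, median −0.08). The gene was Il6, the inflammatory cytokine interleukin 6, which read 4.29 and 3.84 in vector, 6.01 and 5.92 in BCR-ABL, and 5.57 and 5.06 in BCR-ABL-Blk cells. Its groups did not overlap at any point, with the BCR-ABL-Blk arrays between the others. Il6 rose in BCR-ABL cells, by a log2 difference of 1.90 (SE 0.20, limma adjusted p = 0.0254). Its vector signals were lower than those of any member, with background not measured, so no fold change in RNA is given, and the filter on low values left the gene out; without BCR-ABL replicate 1 or replicate 2 the adjusted p was 0.239 and 0.254, and without an intensity trend 0.059. Between BCR-ABL-Blk and BCR-ABL it was at −0.65 (adjusted p = 0.999), and between BCR-ABL-Blk and vector at 1.25 (adjusted p = 0.0714), which passed on the deposited values, without vector replicate 1 (adjusted p = 0.0112) and with the replicate number as a block (0.0422). Ier3, an early response gene that protects against apoptosis, read 8.00 and 8.18 in vector, 8.83 and 9.19 in BCR-ABL, and 8.62 and 8.57 in BCR-ABL-Blk cells, and its difference of 0.92 between BCR-ABL and vector did not pass (adjusted p = 0.107; 0.0386 on the deposited values). Tnfaip2, a gene induced by TNF, was at −0.54 there (adjusted p = 0.358), and Tnip2, an inhibitor of NF-kB signalling, at −0.43 between BCR-ABL-Blk and BCR-ABL (adjusted p = 0.999).

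Of 6 genes for shedding and activation of TNF, 1 rose between BCR-ABL-Blk and vector and 0 fell (median difference 0.09), where 0.140% of all named genes passed (median 0.00). In the other comparisons 0 of the 6 passed (medians 0.16 between BCR-ABL and vector and 0.00 between BCR-ABL-Blk and BCR-ABL). The gene that rose was Timp3, the inhibitor of the protease that sheds TNF and its receptors from the cell surface. Timp3 read 6.83 and 6.16 in vector, 8.15 and 8.09 in BCR-ABL, and 8.27 and 8.76 in BCR-ABL-Blk cells, so that every array with the oncogene lay above both vector arrays. It rose 4.06-fold in BCR-ABL-Blk cells (log2 difference 2.02, SE 0.24, limma adjusted p = 0.0490), and its difference in BCR-ABL cells was 1.63 (SE 0.24, adjusted p = 0.0675). Without either BCR-ABL array or either BCR-ABL-Blk array the first of these had an adjusted p between 0.119 and 0.191, with the replicate number as a block 0.0648, and without an intensity trend 0.0748. The second passed on the deposited values (adjusted p = 8.185e-06) and without vector replicate 1 (0.00538) or replicate 2 (0.0405).

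**Figure D5:**
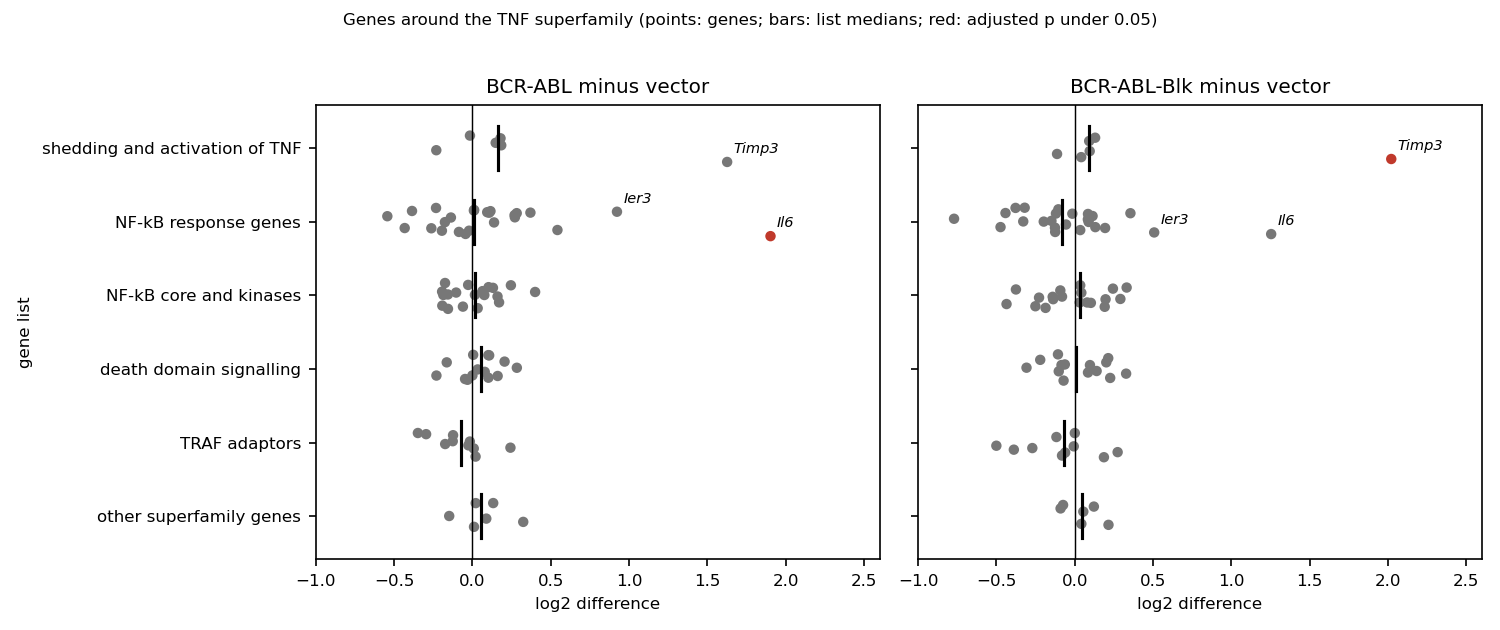
Points are the log2 differences of single genes from 6 lists around the superfamily, bars the list medians, for BCR-ABL (left) and BCR-ABL-Blk (right) against vector; red marks an adjusted p under 0.05. Il6 (1.90) is the point past the threshold on the left and Timp3 (2.02) the point past it on the right, while the list medians lie between −0.08 and 0.16.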

How the data were processed

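The deposited table holds log2 values of 35557 probe sets on 6 Affymetrix arrays, made by the authors with Affymetrix Expression Console 1.1 and RMA, per the submitters' processing notes; its options are not stated there, and a genome build is not given in the sources used here. Because array medians differed, arrays were quantile normalized (limma 3.58.1, R 4.3.3), which removes shifts shared by all genes. Symbols came from the platform annotation (21789 probe sets with 1 symbol, 1621 with several, 12147 unnamed); all 38 members matched RefSeq by Entrez ID. Where a gene had more than 1 probe set, that of highest mean signal stood for it. All 6 arrays and 3 groups were fitted together with lmFit and eBayes (intensity trend, 3 residual and 4.4 prior degrees of freedom), without a block and without a filter on low values; p-values are two-sided and adjusted over 19938 genes. The fit was tested on simulated data.

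Members and lists were chosen with earlier results of these data known. Differences are printed for Tnf, Tnfrsf1a, Tnfrsf1b, Fas and Cd40, for members with an unadjusted p under 0.05, and for the 5 largest per comparison; up to 3 genes per list with an unadjusted p under 0.05 are named. Other members are given by array values or group means. P-values rest on the spread between samples labelled biological replicates, 2 per group, pooled over the 3 groups and moderated across genes. Alternatives were the deposited scaling, median centring, a replicate block, no trend, a filter on low values, the mean of a gene's probe sets, and leaving out each array. Figures were drawn with matplotlib 3.10.9 in Python 3.11.15.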

Additional observations from a re-analysis of the deposited data

How the results depend on the processing

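With 2 arrays per group, single arrays decided how many genes passed. Between BCR-ABL and vector 29 genes passed, against 401 on the deposited values (176 higher, 225 lower), 15 without an intensity trend, 50 after a filter on low values that kept 10463 genes, and 1 (without either BCR-ABL array) to 507 (without vector replicate 1) when an array was left out. Between BCR-ABL-Blk and BCR-ABL 0 passed, against 79 on the deposited values (66 higher, 13 lower) and 0 to 2 with an array left out. Between BCR-ABL-Blk and vector 28 passed, against 731 on the deposited values (561 higher, 170 lower), 4 without a trend, 53 after the filter and 4 to 560 with an array left out. Members that passed numbered 0 to 1 with an array left out between BCR-ABL and vector (Tnfrsf9), and 1 on the deposited values in each other comparison (Ltb). The median member difference was −0.11, 0.26 and 0.19 on the deposited values, where the median named gene differed by −0.11, 0.255 and 0.15, and 0.11 and 0.12 against vector after the filter, which kept 19 members. The cause of these changes was not tested beyond what each setting does to the genes and arrays used.

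Some differences changed sign, among them that of Tnfrsf1a between BCR-ABL and vector, at −0.39 the lowest of the 38 members there. On the deposited values Cd40 was at −0.035 between BCR-ABL and vector, Tnfrsf1b at 0.155 and Fas at 0.23 when BCR-ABL-Blk was set against BCR-ABL, and Tnfrsf1a at 0.02 between BCR-ABL-Blk and vector. With an array left out, BCR-ABL minus vector ran from −0.25 to 0.016 for Tnf and from −0.82 to 0.040 for Tnfrsf1a. BCR-ABL-Blk minus BCR-ABL ran from −0.54 to 0.42 for Fas and from −0.13 to 0.16 for Cd40. BCR-ABL-Blk minus vector ran from −0.61 to 0.25 for Tnfrsf1a, from −0.21 to 0.75 for Fas, from −0.020 to 0.27 for Cd40, from −0.10 to 0.78 for Tnfsf10 and from −0.0425 to 0.68 for Tnfrsf10b. The cause was not tested. Of the settings for named members and pathway genes, 530 kept direction and side of the threshold, 10 brought a difference past it, 9 took it back and 15 turned the sign.

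Over all named genes, deviations of same-numbered arrays correlated at −0.06, 0.08 and 0.03, which cannot show whether single genes follow the replicate number. With the replicate number as a block 29, 0 and 23 genes and 0 members passed. The unadjusted limma p of Ltb between BCR-ABL-Blk and BCR-ABL fell from 0.0354 to 0.00299 with the block. Between BCR-ABL and vector, that of Tnfrsf1a fell from 0.2105 to 0.0498 and that of Tnfrsf9 rose from 0.000523 to 0.000962.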

Other observations

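Some members, like some of all named genes, stood apart between the replicates of a group. Replicates were over 0.5 log2 apart for 4 of 38 members in vector (8.46% of all named genes). The same held for 1 in BCR-ABL (2.43%) and for 3 in BCR-ABL-Blk cells (4.32%). In vector these were the ligands Tnfsf10, Tnfsf9 and Lta and the receptor Tnfrsf1a, in BCR-ABL cells Ltb, and in BCR-ABL-Blk cells Fas, Tnfrsf10b and Ltb. For Fas and Tnfrsf10b, both death receptors, BCR-ABL-Blk replicate 2 was lower than replicate 1, by −0.96 and −0.72, whereas Ltb was higher there by 0.65. The mean of the mast cell, basophil and eosinophil markers was also lower on that array, at 8.35 against 9.30. So were the erythroid (8.77 against 9.13), B cell (7.58 against 7.93) and neutrophil granule (9.74 against 9.93) means. The dendritic cell mean (8.32 against 8.19) and the stem and progenitor mean (9.98 against 9.92) were higher there. Between the BCR-ABL replicates Fas also was lower on replicate 2, by −0.43, while the mast cell, basophil and eosinophil mean was higher (9.23 against 9.14). The part of these markers in the gaps was not tested.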
